A study of Mus musculus with 64 samples.

Results

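Interferon-stimulated genes were followed through a mouse study of Myc loss and age, as 48 genes chosen by symbol, without MHC genes, and found in the expression table by their mouse gene IDs. Of the 48, 46 had an entry among the 36332 distinct gene IDs of the table, and Mx1 and Mx2 were not analysed here. The 46 comprise 10 GTPases, which are Irgm1, Irgm2, Igtp, Iigp1, Ifi47, Gbp2, Gbp3, Gbp5, Gbp6 and Gbp7, and 36 other members, called type I targets here. That list holds every member that is not a GTPase, Irf1, Nlrc5 and the interferon gamma-induced Cxcl9 among them. RNA was sequenced in 64 libraries of omental adipose tissue, liver and skeletal muscle, from MycKO mice (KO) and wild-type mice (WT) at 5 months (young) and 20 months (old). Each tissue has 6 young WT, 6 young KO, 5 old WT and 5 old KO libraries, except that muscle has 4 young KO libraries. The KO mice combine 2 alleles, Gt(ROSA)26Sortm1(cre/ERT2), a tamoxifen-activated Cre recombinase at the broadly expressed Rosa26 locus, and Myctm2Fwa, a Myc gene that Cre can remove, on backgrounds labelled B6.129 and B6.129S6. The WT mice are labelled C57/B6, and the labels name no Cre or Myc allele in them, so the Cre, the strain background and the loss of Myc cannot be told apart. KO and WT mice alike are labelled as given tamoxifen intraperitoneally in corn oil, 75 mg/kg on each of 5 days, at weaning and once they weighed at least 15 g. The codes of the old libraries hold the number 18 where the labels say 20 months. The codes differ within each group, but no label states that each library is 1 animal, so p-values measure the spread between these libraries.

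Type I interferons are secreted when cells sense viral RNA or DNA, and they signal through a receptor on nearly every cell to a complex that includes STAT2 and IRF9. That complex binds the interferon-stimulated response element (ISRE) and switches on genes whose products degrade viral RNA, block translation or carry the ubiquitin-like modifier ISG15. Interferon gamma from T and NK cells instead acts through the gamma-activated sequence (GAS), and the immunity-related GTPases and guanylate-binding proteins are among its classic targets. Many of these genes answer to both kinds of interferon, and a low tonic level of expression is known in tissues without infection.

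Because the ISRE and GAS elements define these routes of induction, promoter sequences are shown before the values. RefSeq promoter windows of GRCm38.p6, 250 bases before to 50 bases after a transcription start, were found for 35 of the 48 listed members. The ISRE core GAAANNGAAA was present, on either strand, for 22 of these 35 members (62.86%) against 1079 of 27025 genes with a window (3.99%). The GAS core TTCNNNGAA was present for 11 members (31.43%) against 2582 genes (9.55%). Among the type I targets, 15 of 27 with a window held the ISRE core (55.56%) and 7 held the GAS core. Among the GTPases, 7 of 8 with a window held the ISRE core (87.5%) and 4 held the GAS core. Genes with a single listed start gave 20 of 30 members with the ISRE core (66.67%) against 818 of 22862 genes (3.58%). A match is a string of letters and not a shown binding site. The windows of Isg15, Ifit1, Stat2, Irf1 and Igtp follow, each the 250 bases before the start, with the matched letters in capitals. Isg15 lies on the minus strand at chr4:156200819-156201068 and has 3 overlapping ISRE cores that begin 78, 72 and 66 bases before the start. Ifit1, at chr19:34640639-34640888 on the plus strand, has 2 ISRE cores on the opposite strand, 104 and 85 bases before the start. Stat2, at chr10:128270248-128270497 on the plus strand, has 1 ISRE core on the opposite strand, 222 bases before the start. Irf1, at chr11:53769764-53770013 on the plus strand, has a GAS core 90 bases before the start and no ISRE core in this window. Igtp, at chr11:58199306-58199555 on the plus strand, has a GAS core 45 bases and an ISRE core 34 bases before the start, which overlap by no base.
Isg15: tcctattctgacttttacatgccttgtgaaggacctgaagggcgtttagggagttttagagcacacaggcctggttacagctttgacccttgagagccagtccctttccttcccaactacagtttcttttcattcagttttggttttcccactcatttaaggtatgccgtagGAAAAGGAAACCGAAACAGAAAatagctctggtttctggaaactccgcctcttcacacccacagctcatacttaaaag
Ifit1: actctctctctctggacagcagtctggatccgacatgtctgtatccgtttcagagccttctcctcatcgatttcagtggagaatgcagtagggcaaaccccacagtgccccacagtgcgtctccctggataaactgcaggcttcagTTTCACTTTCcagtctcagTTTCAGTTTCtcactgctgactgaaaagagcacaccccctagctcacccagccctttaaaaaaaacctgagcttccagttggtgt
Stat2: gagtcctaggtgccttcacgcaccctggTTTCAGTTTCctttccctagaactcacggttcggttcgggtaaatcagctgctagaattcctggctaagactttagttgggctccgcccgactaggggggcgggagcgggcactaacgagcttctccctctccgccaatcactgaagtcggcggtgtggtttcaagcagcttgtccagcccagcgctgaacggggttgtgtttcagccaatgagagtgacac
Irf1: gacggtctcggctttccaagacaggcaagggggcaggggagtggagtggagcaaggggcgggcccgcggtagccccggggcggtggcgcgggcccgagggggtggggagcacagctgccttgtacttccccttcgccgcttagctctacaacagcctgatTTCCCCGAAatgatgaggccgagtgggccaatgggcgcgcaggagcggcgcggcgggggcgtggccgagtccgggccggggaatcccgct
Igtp: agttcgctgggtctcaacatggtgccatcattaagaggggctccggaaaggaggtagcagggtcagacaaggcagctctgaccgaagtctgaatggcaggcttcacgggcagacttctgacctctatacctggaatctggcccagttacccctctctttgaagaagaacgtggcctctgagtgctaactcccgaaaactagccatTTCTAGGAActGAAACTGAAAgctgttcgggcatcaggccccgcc

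Values are given in the deposited unit, called CPM here, a read count scaled by one factor per library, and each library's column sums to between 0.529 M and 1.64 M (M for mega). The libraries hold 15.4 M to 28.5 M reads. Because CPM does not divide by gene length, levels are compared between groups and not between genes. The column sums follow tissue, at 0.529 M to 0.753 M in adipose, 1.18 M to 1.64 M in liver and 1.08 M to 1.32 M in muscle libraries. Orders of the tissues below are therefore orders in the deposited unit. Relative to the column sum, liver and muscle levels would stand lower against adipose levels. The markers matched the labelled tissues, with summed adipocyte markers of 6614 to 26590 CPM in adipose tissue against at most 712 elsewhere, and likewise for liver and muscle. Myc itself averaged 19.6 ± 10.3 CPM (SD, n = 6) in young WT liver and 2.59 ± 1.06 in young KO liver. Its KO difference passed the limma test in young liver (adjusted p = 0.00093) and young adipose tissue (adjusted p = 0.017), and not in muscle or at 20 months, where the means were also lower in KO. Several libraries stand apart by their contents. Xist, read from the inactive X chromosome, marked 12 young libraries, 2 in each young group, and no old library. Epididymis transcripts summed to more than 10 CPM in the adipose libraries K5F4284 (6987), K5F5218 (957), K5F5248 (4249) and W5F5299 (920), all labelled omental. The same held for 1 young WT muscle library, W5S5299 (127). The adipocyte markers do not name the fat depot, and the depot of these libraries was not tested. Muscle library K5S4285 held T cell and B cell transcripts, K18S48 neutrophil transcripts and W18S42 hepatocyte transcripts. The medians and counts of calls that these libraries moved are given below with and without them. The muscle setting without libraries with blood or liver transcripts leaves out only K5S4285, K18S48 and W18S42. Muscle libraries kept in it also held such transcripts at lower sums. Neutrophil markers summed to 74 CPM in W18S45 and 67.7 in K5S4284, against 485 in K18S48. Hepatocyte markers summed to 42.5 in W5S5004, against 2742 in W18S42.

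In the following, the order of groups is young WT, young KO, old WT and old KO, and values are means ± SD in CPM over the libraries of each group. Stat2 is the STAT unit specific to type I and III interferon signalling. In liver Stat2 stood at 38.7 ± 10.8, 34.1 ± 11.1, 60.9 ± 9.92 and 68.2 ± 13.3. Adipose Stat2 levels were 21.9 ± 4.06, 26.7 ± 3.05, 23.8 ± 2.14 and 27.4 ± 2.31, and muscle levels were 9.38 ± 3.88, 12 ± 2.62, 8.04 ± 2.49 and 9.08 ± 1.98. Both old liver means of Stat2 exceeded both young ones, and the ranges of the groups overlap in liver as in adipose tissue and muscle. Irf7 encodes the factor that amplifies type I interferon production. In adipose tissue Irf7 stood at 13.6 ± 5.49, 18.4 ± 3.81, 10.4 ± 1.26 and 11.3 ± 3.61. Liver Irf7 levels were 31.8 ± 12.8, 47.3 ± 17.7, 39.2 ± 9.01 and 60.4 ± 18.2. Muscle gave Irf7 levels of 5.07 ± 1.85, 4.84 ± 2.11, 5.24 ± 2.58 and 6.19 ± 3.09, the lowest of the tissues. In liver both KO means of Irf7 lay above the WT mean of the same age, with ranges that overlap.

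In the deposited unit, the ISG15 system and the RNA sensor Ddx58 had their highest means in liver in each of the 4 groups. Liver columns have larger sums than adipose columns, so this order need not hold relative to the column sum. Isg15 encodes the ubiquitin-like modifier. In liver Isg15 stood at 5.0 ± 2.0, 6.45 ± 5.67, 8.07 ± 1.94 and 9.95 ± 4.08. Adipose Isg15 levels were 3.76 ± 1.45, 4.2 ± 1.24, 2.9 ± 0.469 and 3.19 ± 0.766, and muscle levels were 0.99 ± 0.712, 1.36 ± 0.384, 1.75 ± 0.378 and 1.54 ± 0.614. The young KO mean in liver rests on library K5L5218 at 17.85, since the other 5 lay at or below 5.79. Usp18 encodes the protease that removes ISG15 and dampens the receptor. In liver Usp18 stood at 11.9 ± 3.18, 17.9 ± 4.47, 11.4 ± 4.88 and 19.1 ± 7.96. Adipose Usp18 levels were 3.46 ± 1.89, 4.58 ± 1.13, 2.67 ± 0.636 and 2.98 ± 0.848, and muscle levels were 2.39 ± 0.554, 1.9 ± 0.59, 1.71 ± 0.853 and 2.68 ± 1.12. Both KO means of Usp18 exceeded their WT means in liver, with ranges that overlap. Ddx58 encodes RIG-I, a sensor of viral RNA ends. In adipose tissue Ddx58 stood at 18.3 ± 3.47, 18.1 ± 8.35, 25.9 ± 2.09 and 22.7 ± 2.48. Liver Ddx58 levels were 21.3 ± 5.88, 23.1 ± 3.4, 28.6 ± 6.5 and 32 ± 8.52, and muscle levels were 5.35 ± 1.5, 5.64 ± 0.842, 5.25 ± 2.01 and 6.41 ± 1.09. The old means of Ddx58 were above the young means in liver and adipose tissue, and muscle was lowest.

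The antiviral effectors had no single tissue order. Ifit1 and Ifit3 bind viral RNA caps or their partners and block translation. In adipose tissue Ifit1 stood at 4.9 ± 3.39, 9.89 ± 5.33, 5.46 ± 1.81 and 4.48 ± 1.0. Liver Ifit1 levels were 7.83 ± 3.51, 8.1 ± 5.86, 16.3 ± 2.61 and 21.5 ± 11.4, and muscle levels were 2.14 ± 0.812, 2.38 ± 0.492, 3.44 ± 1.23 and 3.6 ± 1.17. Young KO gave the highest adipose mean and old KO the highest liver mean of Ifit1, each with the widest SD of its tissue. In adipose tissue Ifit3 stood at 13.3 ± 7.01, 20.9 ± 7.4, 12.9 ± 3.19 and 12.4 ± 2.28. Liver Ifit3 levels were 10.9 ± 3.53, 10.9 ± 5.43, 16.4 ± 2.17 and 21.5 ± 11, and muscle levels were 3.47 ± 1.09, 4.99 ± 1.75, 5.07 ± 2.02 and 7.04 ± 2.06. Young KO was again the highest adipose group and old KO the highest liver group for Ifit3, although its reads and those of the near-identical neighbour Ifit3b could be split by the counting. Rsad2 encodes viperin, which makes a chain-terminating nucleotide. In liver Rsad2 stood at 14.1 ± 4.6, 13.3 ± 5.46, 28.7 ± 11.9 and 31 ± 12.2. Adipose Rsad2 levels were 5.83 ± 1.75, 8.97 ± 3.81, 8.99 ± 0.917 and 10.1 ± 2.74, and muscle levels were 6.37 ± 2.55, 10.8 ± 3.14, 9.71 ± 5.92 and 14 ± 4.31. Both old liver means of Rsad2 exceeded both young ones, with 1 old KO library at 9.77. Bst2 encodes tetherin, which holds budding virus at the cell surface. In liver Bst2 stood at 167 ± 67.3, 196 ± 58.6, 147 ± 27.9 and 196 ± 26.8. Adipose Bst2 levels were 37.7 ± 15.3, 39 ± 26.4, 31.1 ± 2.82 and 34.6 ± 8.66, and muscle levels were 7.64 ± 1.15, 10.53 ± 3.25, 10.2 ± 4.0 and 8.45 ± 0.912. Every liver library lay above every adipose library for Bst2, and every adipose library above every muscle library. Oasl2 encodes an oligoadenylate synthetase family member. In adipose tissue Oasl2 stood at 32.5 ± 29.7, 37.5 ± 15.1, 15.6 ± 6.2 and 19.6 ± 5.36. Liver Oasl2 levels were 4.42 ± 2.19, 4.28 ± 1.35, 5.08 ± 1.14 and 5.37 ± 1.44, and muscle levels were 3.61 ± 2.38, 3.28 ± 1.03, 3.36 ± 1.39 and 4.09 ± 1.33. Adipose libraries were all above those of liver and muscle for Oasl2, while the liver and muscle levels overlapped. Cxcl10 encodes a chemokine that draws T cells. In liver Cxcl10 stood at 3.5 ± 2.84, 2.9 ± 2.46, 7.24 ± 2.48 and 6.59 ± 2.72. Adipose Cxcl10 levels were 3.49 ± 1.23, 6.6 ± 7.32, 1.95 ± 0.288 and 2.51 ± 1.09, and muscle levels were 2.39 ± 3.23, 2.21 ± 1.28, 0.636 ± 0.298 and 0.702 ± 0.368. The large SD of young KO adipose tissue comes from K5F4285, at 21.4 CPM of Cxcl10.

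The GTPases guard the cytosol against bacteria and parasites. Irgm1 regulates the other immunity-related GTPases. In liver Irgm1 stood at 50.01 ± 12.4, 51.5 ± 13.5, 68.8 ± 8.29 and 85.1 ± 25.6. Adipose Irgm1 levels were 16.8 ± 3.0, 22.6 ± 7.29, 16.8 ± 1.2 and 19.5 ± 2.67, and muscle levels were 12.2 ± 2.57, 14.8 ± 3.56, 16.9 ± 3.32 and 17.9 ± 2.76. In the deposited unit, all liver libraries exceeded all adipose and muscle libraries for Irgm1. Iigp1 encodes an effector GTPase that ruptures parasite vacuoles. In liver Iigp1 stood at 268 ± 104, 308 ± 158, 379 ± 75.6 and 447 ± 135. Adipose Iigp1 levels were 17.5 ± 8.37, 19.6 ± 7.79, 15.4 ± 1.89 and 21.1 ± 3.06, and muscle levels were 6.94 ± 4.88, 13.1 ± 5.65, 8.75 ± 6.1 and 13 ± 5.1. The lowest liver library, at 133 CPM, held more Iigp1 than the highest library of the other tissues, at 30.9. Gbp2 encodes a guanylate-binding protein. In adipose tissue Gbp2 stood at 48.8 ± 23.2, 41.6 ± 13, 39.5 ± 3.51 and 44.1 ± 4.88. Liver Gbp2 levels were 5.81 ± 4.13, 8.93 ± 2.38, 7.71 ± 2.17 and 9.75 ± 3.64, and muscle levels were 6.18 ± 3.67, 10.3 ± 1.91, 7.13 ± 1.57 and 9.65 ± 2.46. Gbp2 was instead highest in adipose tissue, with every adipose library above every liver and muscle library. Gbp6, chosen after its values were seen, was highest in young muscle, at 93.4 ± 76.7 CPM in WT and 96.4 ± 71.6 in KO. Reads of the clustered Gbp genes may be shared between copies, and strand use in the counting is not given in the sources used here.

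**Figure D1:**
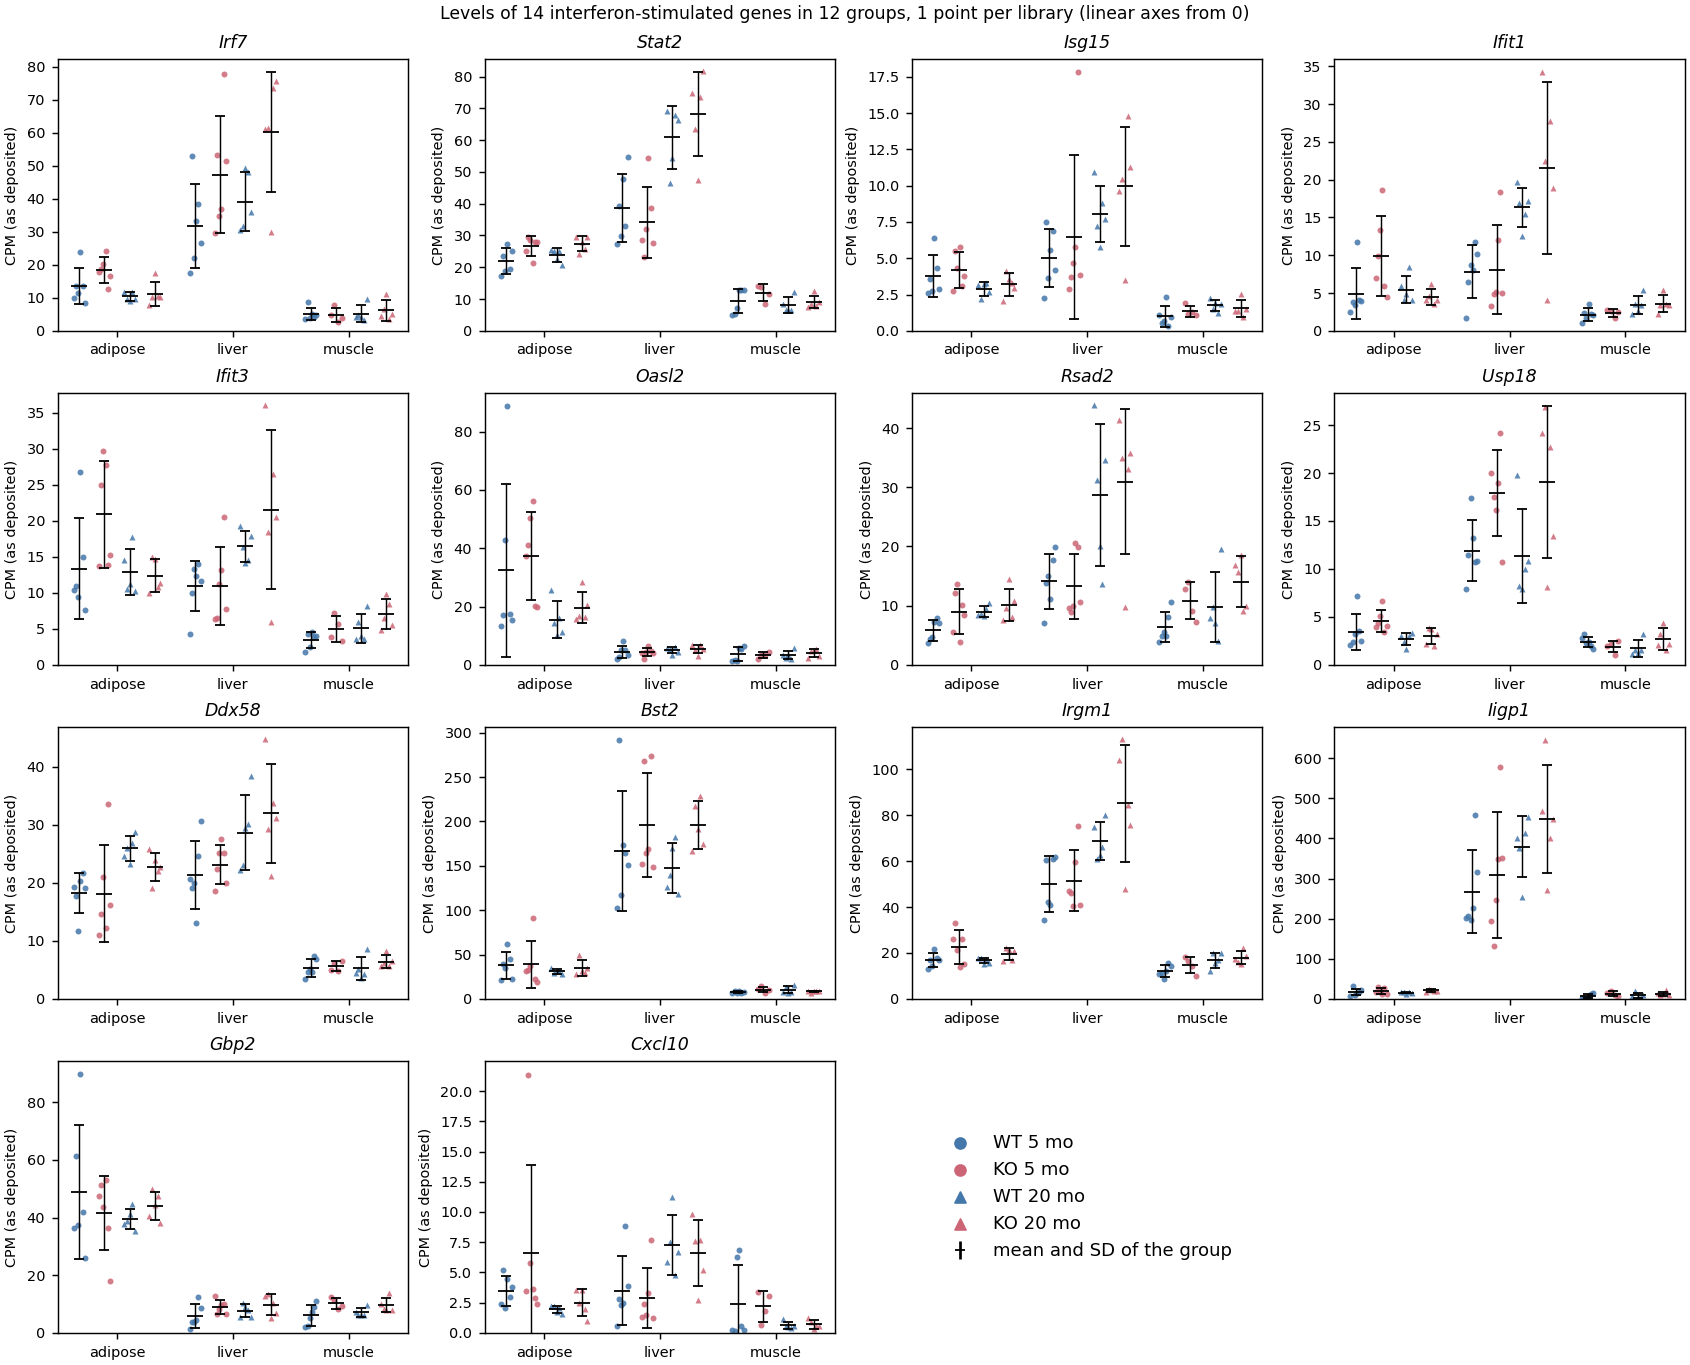
CPM of 14 interferon-stimulated genes by tissue, genotype and age, on linear axes from 0, with 1 point per library and bars at the mean and SD of each group. In the deposited unit, Iigp1, Bst2 and Irgm1 are highest in liver and Oasl2 and Gbp2 in adipose tissue. Genotypes overlap in every tissue at 5 months.

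Whether these genes differed by genotype was tested as KO against WT in each tissue and age, which cannot separate Myc loss from the Cre or the strain background. No member passed: limma on log2(CPM + 1), adjusted over all genes tested, called 0 members in each of the 6 comparisons, and edgeR and DESeq2 on the recovered reads also called 0. Few genes of any kind passed this threshold, from 0 in young muscle and old adipose tissue to 15 in young adipose tissue. Since no member passed, the members named for KO against WT were chosen after their values were seen, among those with an unadjusted p under 0.05 or with groups that do not overlap. Differences are log2(CPM + 1) of KO minus WT, which understates the change of low genes.

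In young adipose tissue 0 of 46 members were called (all genes 0.105%), 9 had an unadjusted p under 0.05 (all genes 11.8%) and 8 of those were higher in KO. Ifit1 ranged from 2.51 to 11.7 with a median of 3.86 CPM in WT and from 4.49 to 18.7 with a median of 8.43 in KO. The other 5 WT libraries lie below every KO library, and the overlap comes from WT library W5F5042, which holds Xist. Over type I targets the KO libraries with Xist, K5F5116 and K5F5118, had the highest median deviations of their group, at 0.41 and 0.34 (log2). W5F5042 stood at 0.49 in WT, but the other WT library with Xist, W5F5041, at -0.15. Macrophage markers summed to 1996 CPM in K5F5116 and 3072 in K5F5118, against 612 to 1657 in the other young KO libraries. In young WT these sums were 772.5 to 1331, with 1293 in W5F5042. The part of sex or of macrophages in these levels was not tested. The Ifit1 difference was 0.89 ± 0.30 (SE, limma adjusted p = 0.28). Irf9, the DNA-binding unit of the STAT complex, ranged from 15.1 to 31.7 with a median of 20.1 in WT and from 22.6 to 41 with a median of 25.6 in KO. Its difference was 0.45 ± 0.16 (SE, limma adjusted p = 0.32). Ifit3 differed by 0.65 ± 0.25 (SE, limma adjusted p = 0.34), Irf7 by 0.47 ± 0.20 (SE, limma adjusted p = 0.38) and Stat2 by 0.28 ± 0.12 (SE, limma adjusted p = 0.36). Oas3, an oligoadenylate synthetase near the expression floor, differed by 0.66 ± 0.21 (SE, limma adjusted p = 0.26). Ifi27, which encodes a mitochondrial protein, was the exception, at -0.82 ± 0.35 (SE, limma adjusted p = 0.37). The median difference was 0.19 over the type I targets, 26 of 36 of them above 0, against -0.038 over all genes, 43.58% of them above 0. The GTPases had a median of -0.0045, with 4 of 10 above 0. No member had groups without overlap (all genes 0.301%). Without the libraries that hold Xist, 2 members passed, Irf9 higher and Ifi27 lower in KO. In that fit every young KO library but K5F4285 held epididymis transcripts above 10 CPM, against W5F5299 alone in young WT. Epididymis markers, 6 of 6 with an entry, summed to 0 to 6987 CPM in young KO and 0 to 920 in young WT adipose tissue. Without the 4 adipose libraries above 10 CPM of them, the type I median was 0.31 and 0 members were called. The young KO libraries kept there are K5F4285 and the Xist libraries K5F5116 and K5F5118. T cell markers, 8 of 8 with an entry, summed to 17.8 to 29.5 CPM in young KO and 6.3 to 18.7 in young WT, and the part of T cells in these differences was not tested. In bulk tissue, fewer cells of a type and less RNA per cell cannot be told apart.

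At 20 months the adipose differences were small. In that comparison 0 of 46 members were called (all genes 0.0%) and 1 had an unadjusted p under 0.05 (all genes 2.25%), higher in KO. Igtp, a GTPase that works with Iigp1 at pathogen vacuoles, read 7.99, 9.65, 11.3, 12.4 and 12.6 CPM in old WT and 13.1, 13.3, 14.6, 15.9 and 20.6 in old KO. Every KO library was above every WT library, with a difference of 0.48 ± 0.22 (SE, limma adjusted p = 1.0). Iigp1 also separated, at 12.3, 15.1, 16.2, 16.4 and 17.2 in WT and 17.4, 19.7, 20.5, 22.4 and 25.6 in KO, by 0.43 ± 0.28 (SE, limma adjusted p = 1.0). Cxcl9, a chemokine induced by interferon gamma, separated the other way, at 17.9, 17.9, 18.5, 20.3 and 24.9 in WT and 10.2, 11.2, 14.1, 15.4 and 16.7 in KO, by -0.54 ± 0.35 (SE, limma adjusted p = 1.0). These 3 of 46 were the members without overlap (all genes 1.29%). The GTPases had 9 of 10 differences above 0 and a median of 0.19, and the type I targets 23 of 36 and 0.054. Over all genes 51.82% were above 0, with a median of 0.007.

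In young liver 0 of 46 members were called (all genes 0.0696%), and 7 had an unadjusted p under 0.05, all higher in KO (all genes 6.94%). Guanylate-binding proteins made up 3 of these 7. Gbp3 ranged from 1.81 to 7.24 with a median of 5.2 CPM in WT and from 6.08 to 9.65 with a median of 7.95 in KO. Its groups overlap only between 6.08 and 7.24 CPM, and the difference was 0.64 ± 0.21 (SE, limma adjusted p = 0.47). Gbp2 differed by 0.73 ± 0.31 (SE, limma adjusted p = 0.64) and Gbp7 by 0.53 ± 0.20 (SE, limma adjusted p = 0.58). Irf7 differed by 0.57 ± 0.26 (SE, limma adjusted p = 0.69) and Usp18 by 0.55 ± 0.26 (SE, limma adjusted p = 0.71). All 10 GTPase differences were above 0, with a median of 0.21, and 26 of 36 type I targets were above 0, with a median of 0.17. Over all genes 52.36% were above 0, with a median of 0.011. No member had groups without overlap (all genes 0.201%). T cell markers summed to 6.25 to 12.1 CPM in young KO and 2.85 to 6.0 in young WT liver, groups that do not overlap, and their part in these differences was not tested.

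In old liver 0 of 46 members were called (all genes 0.0232%) and 6 had an unadjusted p under 0.05, all higher in KO (all genes 5.8%). The direction was shared by most of the family: 34 of 36 type I targets and 10 of 10 GTPases were above 0, against 51.93% of all genes. Members can move together within a library, so these are not independent observations. Igtp read 37.6, 44.1, 48.5, 56.9 and 58.8 CPM in old WT and 53.1, 78, 79.2, 86.6 and 146 in old KO. Of the KO libraries, K18L08 alone falls among the WT values, and the difference was 0.78 ± 0.27 (SE, limma adjusted p = 0.75). Gbp7 read 7.35, 8.37, 8.91, 9.91 and 10.4 in WT and 7.01, 13.8, 15.5, 18.8 and 21.1 in KO, a difference of 0.63 ± 0.22 (SE, limma adjusted p = 0.75). Usp18 differed by 0.66 ± 0.28 (SE, limma adjusted p = 0.81). Nlrc5, the transactivator of MHC class I genes, was the 1 member of 46 without overlap, a share near that of all genes (2.46%). It read 19.3, 19.3, 21.8, 22.1 and 25.5 in WT and 25.6, 25.9, 29, 32.5 and 32.5 in KO. Its difference was 0.41 ± 0.19 (SE, limma adjusted p = 0.84). The medians were 0.20 over type I targets and 0.44 over GTPases, against 0.01 over all genes. Library K18L08 decided their size, because without it the medians were 0.42 and 0.67. That library was the lowest of its group for 42 of 46 members. T cell markers summed to 4.74 to 7.26 CPM in old KO and 1.92 to 6.59 in old WT liver, and their part was not tested.

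In muscle 43 members were tested, since Oas3, Zbp1 and Ifi44 did not pass the filter on low values. At 5 months 0 of 43 were called (all genes 0.0%), and 7 had an unadjusted p under 0.05, all higher in KO (all genes 4.1%). Igtp ranged from 2.79 to 12.2 with a median of 5.74 CPM in young WT and read 7.57, 13.5, 13.9 and 24.9 in young KO. Of the 4 KO libraries, 3 exceeded every WT library, and the difference was 1.0 ± 0.32 (SE, limma adjusted p = 0.83). Gbp3 ranged from 1.59 to 6.56 with a median of 2.85 in WT and read 4.72, 6.21, 8.17 and 12.2 in KO, a difference of 0.96 ± 0.29 (SE, limma adjusted p = 0.83). Gbp2 differed by 0.83 ± 0.31 (SE, limma adjusted p = 1.0), Iigp1 by 0.96 ± 0.44 (SE, limma adjusted p = 1.0) and Rsad2 by 0.70 ± 0.32 (SE, limma adjusted p = 1.0). All 10 GTPases were above 0, with a median of 0.61, and 25 of 33 type I targets, with a median of 0.17. Over all genes 52.86% were above 0, with a median of 0.011. No member had groups without overlap (all genes 0.718%). Library K5S4285, with summed T cell markers of 29.2 CPM against at most 4.96 in any other muscle library, was the highest of its group for 23 of 46 members. Without it, K18S48 and W18S42, a setting chosen after seeing the data, the GTPase median was 0.50 and 0 members were called.

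At 20 months 0 of 43 muscle members were called (all genes 0.0302%), and 4 had an unadjusted p under 0.05 (all genes 13.8%, a larger share than 4 of 43), with 2 of the 4 higher in KO. Ifi35, an interferon-induced leucine zipper protein, read 9.52, 10.6, 11, 11.9 and 12.6 CPM in old WT and 6.4, 6.87, 7.61, 8.27 and 9.44 in old KO. All KO libraries were below all WT libraries, with a difference of -0.48 ± 0.15 (SE, limma adjusted p = 0.30). Samhd1, which depletes the nucleotides that retroviruses need, separated the other way, at 28.9, 31.5, 32.8, 33.3 and 34.2 in WT and 35, 35.6, 38.6, 41.4 and 43.3 in KO, by 0.26 ± 0.15 (SE, limma adjusted p = 0.44). These were the 2 members without overlap (all genes 3.0%). Nlrc5 differed by 0.74 ± 0.31 (SE, limma adjusted p = 0.33). The 10 GTPases were all above 0, with a median of 0.42, and the type I targets had 23 of 33 above 0 and a median of 0.17. Over all genes 45.56% were above 0, with a median of -0.027. Without the muscle libraries K5S4285, K18S48 and W18S42, these medians were 0.38 and 0.21, and 0 members were called. T cell markers summed to 2.45 to 4.96 CPM in old KO and 1.15 to 3.15 in old WT muscle, and macrophage markers to 65.7 to 140 and 35 to 116. Their part in these differences was not tested.

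Ageing was compared as 20 against 5 months within each genotype, and here members were called. In liver nearly all members were higher at 20 months in both genotypes. Over the type I targets, 31 of 36 differences were above 0 in WT with a median of 0.35, and 35 of 36 in KO with a median of 0.40. The GTPases were above 0 in 10 of 10 cases in each genotype, with medians of 0.36 in WT and 0.53 in KO. Over all genes the medians were -0.012 and -0.023, with 48.6% above 0 in WT and 46.42% in KO. Limma called 3 members in WT liver, all higher with age (all genes 7.19%), and 1 in KO liver (all genes 2.99%), shares near those of all genes.

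Stat2 was called in both genotypes. In WT liver it ranged from 27.3 to 54.8 with a median of 36.2 CPM at 5 months and read 46.6, 54.4, 66.3, 67.9 and 69.2 at 20 months. In KO liver it ranged from 23.2 to 54.3 with a median of 30.4 and then read 47.5, 63.4, 73.5, 75 and 81.7. The ages overlap by a few libraries in each genotype. Stat2 rose by 0.67 ± 0.20 (SE, limma adjusted p = 0.046) in WT and by 1.01 ± 0.20 (SE, limma adjusted p = 0.0093) in KO. The KO call held in all 29 alternatives and the WT call in 14 of 29, with adjusted p from 0.019 to 0.11. Gbp6 rose in WT by 1.45 ± 0.41 (SE, limma adjusted p = 0.035), having ranged from 3.4 to 18.7 with a median of 7.41 CPM at 5 months and read 18.4, 19.7, 26, 26.5 and 27.8 at 20 months. Eif2ak2, the kinase PKR that halts translation on double-stranded RNA, rose in WT by 0.66 ± 0.20 (SE, limma adjusted p = 0.046). The Gbp6 call held in 17 of 29 alternatives and that of Eif2ak2 in 13 of 29, and adjusted p reached 0.16 for Gbp6 and 0.18 for Eif2ak2.

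Other liver effectors had larger differences than Stat2 with too wide a spread to pass, and these were chosen after their values were seen. Ifit1 ranged from 1.73 to 11.8 with a median of 8.43 CPM in young WT and read 12.5, 15.5, 16.9, 17.2 and 19.6 in old WT, without overlap. In KO liver Ifit1 ranged from 3.27 to 18.3 with a median of 5.06 and read 4.04, 18.9, 22.5, 27.8 and 34.3 at 20 months, where 1 library lies near the young minimum. The Ifit1 differences were 1.11 ± 0.45 (SE, limma adjusted p = 0.12) in WT and 1.27 ± 0.45 (SE, limma adjusted p = 0.12) in KO. Rsad2 differed by 0.93 ± 0.34 (SE, limma adjusted p = 0.093) in WT and 1.10 ± 0.34 (SE, limma adjusted p = 0.079) in KO. Cmpk2, a mitochondrial nucleotide kinase encoded beside Rsad2, differed by 1.20 ± 0.39 (SE, limma adjusted p = 0.062) and 1.34 ± 0.39 (SE, limma adjusted p = 0.061). Cxcl10 differed by 1.04 ± 0.39 (SE, limma adjusted p = 0.095) and 1.05 ± 0.39 (SE, limma adjusted p = 0.13). The low old KO library was K18L08 for Ifit1 and Rsad2, and without K18L08 limma called 12 members in KO liver instead of 1. Leaving out the young KO library K5L5218 gave 11, W5L5004 gave 3 and K5L5118 gave 2. In WT liver the count ran from 0 to 5 over single libraries left out, with 5 without W5L5277 or K18L08 and 0 without any of W5L5004, W5L5005, W5L5041, W18L03, W18L04 and W18L05. It was 1 without any of W5L5042, W18L01, W18L02, K5L5116, K18L07, K18L09 and K18L10. DESeq2 called 7 members in KO and 5 in WT liver, and edgeR 3 and 2, all higher with age. Without the libraries that hold Xist, 0 were called in WT and 1 in KO. The shares of all genes called in these alternative fits are not given here, so these counts do not set the members apart from other genes. Macrophage markers, 10 of 10 with an entry, summed to 295 to 742 CPM in young WT and 224 to 329 in old WT liver. In KO liver the same sums were 469 to 950 and 299 to 413, lower at 20 months. B and plasma cell markers, 7 of 7 with an entry, summed to 2.24 to 16 CPM and then 7.76 to 21.6 in WT liver. The part of either cell type in the ageing differences was not tested.

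In adipose tissue the members that limma called were higher at 20 months, except 1 in KO. Limma called 4 members in WT, all higher at 20 months (all genes 10.8%), and 8 in KO, 7 higher and 1 lower (all genes 14.2%). These shares are near those of all genes. The medians were 0.082 in WT and 0.0085 in KO for type I targets, and -0.0091 and 0.17 for GTPases. Parp14 and Parp9 encode ADP-ribosyltransferase family members of the interferon response. Parp14 ranged from 23.6 to 35.6 with a median of 31.9 CPM in young WT and read 50.8, 51.7, 56.4, 58 and 60.6 in old WT. In KO it ranged from 18.1 to 46.5 with a median of 27.9 and read 44.2, 55.3, 57.4, 59.1 and 63.1. The ages did not overlap in WT and overlapped by 1 pair of libraries in KO. Parp14 rose by 0.81 ± 0.18 (SE, limma adjusted p = 0.008) in WT and 0.93 ± 0.18 (SE, limma adjusted p = 0.0033) in KO, calls that held in all 30 alternatives. Parp9 rose by 0.74 ± 0.20 (SE, limma adjusted p = 0.026) in WT and 0.83 ± 0.20 (SE, limma adjusted p = 0.014) in KO. Samhd1 ranged from 56.7 to 80.1 with a median of 65.9 CPM in young WT and read 87.1, 103, 115, 119 and 136 in old WT, a rise of 0.74 ± 0.17 (SE, limma adjusted p = 0.010) that held in all 30 alternatives. In KO Samhd1 rose by 0.58 ± 0.17 (SE, limma adjusted p = 0.030), and its adjusted p reached 0.22 among the alternatives. Ifi208, a DNA-binding family member near 1 to 2 CPM, rose in WT by 0.75 ± 0.21 (SE, limma adjusted p = 0.028). Irf1, the factor with the GAS core shown above, read 35.7, 36.2, 39.5, 42.7 and 49.9 in old KO after a young range from 23.6 to 32.3 with a median of 26.5. Irf1 rose in KO by 0.57 ± 0.15 (SE, limma adjusted p = 0.019). The remaining calls in KO were Ifih1, Gbp7 and Eif2ak2, higher by 0.49, 0.66 and 0.53, each with a limma adjusted p of 0.040 to 0.045. Of 30 alternatives, the Ifih1 call held in 16, that of Gbp7 in 13 and that of Eif2ak2 in 12.

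Other type I targets differed the other way in KO adipose tissue. Irf7 ranged from 12.8 to 24.2 with a median of 18.3 CPM at 5 months and read 7.91, 10.2, 10.2, 10.55 and 17.5 at 20 months. It fell by 0.68 ± 0.21 (SE, limma adjusted p = 0.037), a call that held in 20 of 30 alternatives. The Ifit1 difference in KO was -0.87 ± 0.31 (SE, limma adjusted p = 0.062) and that of Oasl2 -0.83 ± 0.40 (SE, limma adjusted p = 0.15). Oasl2 in WT differed by -0.72 ± 0.40 (SE, limma adjusted p = 0.22). The split of higher against lower calls differed between the fits. For KO it was 7 to 1 as deposited, 3 to 1 with TMM scaling, 4 to 3 with edgeR and 5 to 7 with DESeq2. The median ageing difference of all genes in KO was 0.058 as deposited, -0.0041 with TMM scaling, -0.054 with edgeR and -0.073 with DESeq2. Without the epididymis libraries the split was 4 to 6, with a type I median of -0.24, and WT had 10 calls, all higher. Only K5F4285, K5F5116 and K5F5118 remain in young KO there. Of these, K5F5116 and K5F5118 hold Xist, as no old library does, and stood highest of their group over type I targets. Over single libraries left out, the KO count ran from 2 without K18F29 to 14 without K5F5218, and was 3 without K18F26, K18F30 or K5F4284 and 5 without K5F4285 or K5F5248. The WT count ran from 2, without W18F21, W18F22 or W5F5041, to 7 without K5F5218. T cell markers in adipose tissue summed to 6.3 to 18.7 CPM in young WT and 21.2 to 82.3 in old WT, without overlap. B and plasma cell markers summed to 27.1 to 115 and 86.4 to 380. In KO the T cell sums were 17.8 to 29.5 and 24.8 to 38.4. Plasmacytoid dendritic cell markers, 5 of 5 with an entry, summed to 45 to 78.8 CPM in young WT and 98 to 128 in old WT, without overlap, and to 29.7 to 86.2 and 78.2 to 103 in KO. Most of that sum was Tcf4, a factor that other cells express too, while Siglech, the receptor that defines these cells, read 0.563 to 1.97 and 1.05 to 3.03 in WT. Their part in the ageing differences was not tested.

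In muscle the members split. Limma called 3 members in WT, all higher at 20 months (all genes 18.6%, a larger share than 3 of 43), and 0 in KO (all genes 5.57%). In KO muscle 3 members had an unadjusted p under 0.05 (all genes 25.6%), edgeR called 0 and DESeq2 called 1, Ifi35, lower. Without W5S5277 limma called 1 member in KO muscle. Eif2ak2 ranged from 2.3 to 7.66 with a median of 3.4 CPM in young WT and read 5.34, 5.34, 6.36, 6.85 and 7.11 in old WT. It rose by 0.60 ± 0.18 (SE, limma adjusted p = 0.031). Ifit3b rose by 0.71 ± 0.23 (SE, limma adjusted p = 0.036) and Ifi208, at about 1 CPM, by 0.63 ± 0.21 (SE, limma adjusted p = 0.041). None of the 3 calls held without the Xist libraries or without the muscle libraries with blood or liver transcripts, where 0 members were called. The count was 7 without W5S5277, 1 without W5S5041, and 0 without W18S42, W18S66, W18S72, W5S5004 or W5S5007. With edgeR the split was 1 higher and 1 lower, and with DESeq2 2 and 2, Gbp6 being lower in both. Gbp6 ranged from 13.2 to 219 with a median of 74.5 CPM in young WT and read 16.1, 20.6, 23.1, 26.2 and 35.2 in old WT. Its spread among young libraries was wide, and the limma difference was -1.45 ± 0.52 (SE, limma adjusted p = 0.058). In KO muscle Gbp6 differed by -0.90 ± 0.58 (SE, limma adjusted p = 0.33). The medians were 0.065 over type I targets and 0.29 over GTPases in WT, and 0.16 and 0.014 in KO. Macrophage markers summed to 75.5 to 295 CPM in young WT and 35 to 116 in old WT muscle, and their part was not tested.

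**Figure D2:**
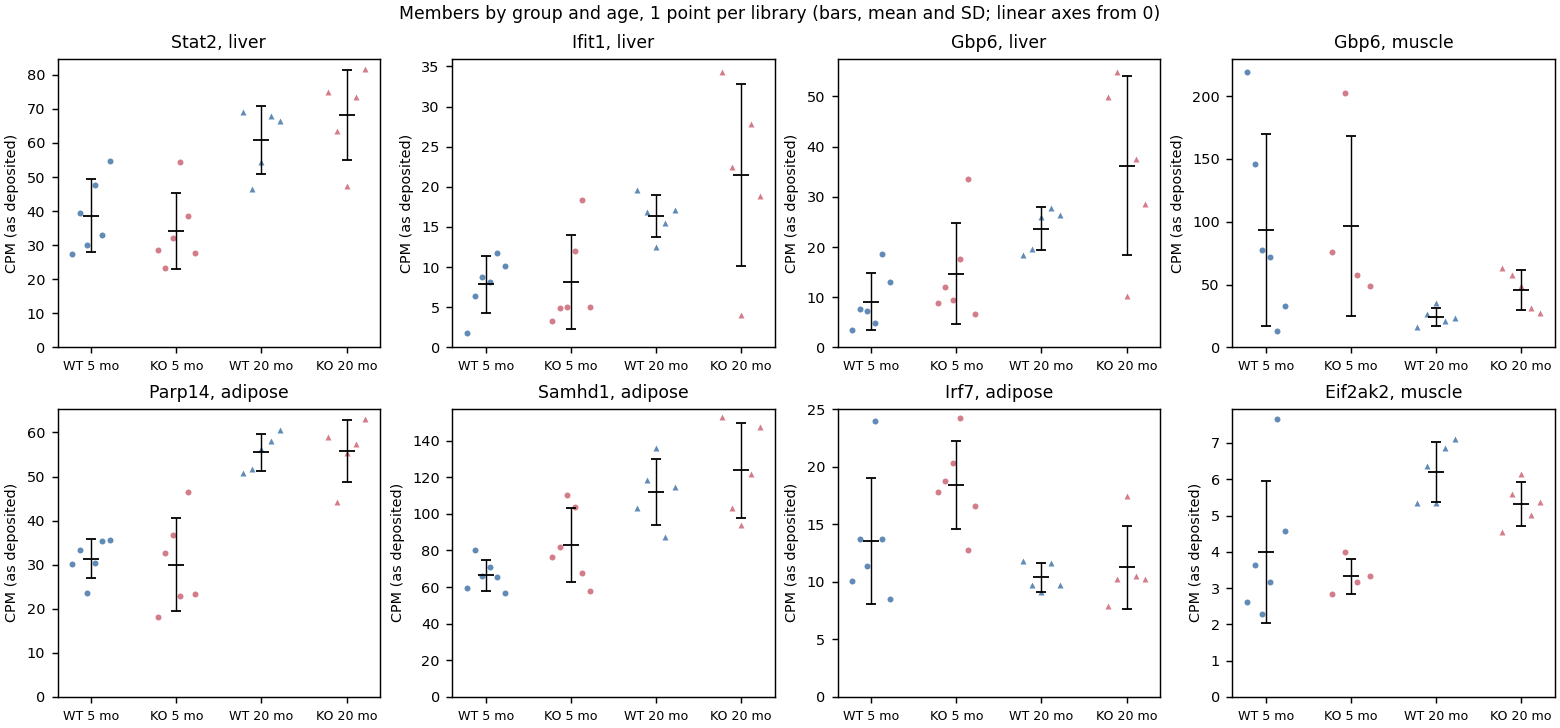
CPM of 7 members by genotype and age (x axis) in the tissue each panel names, on linear axes from 0, with 1 point per library and bars at the mean and SD. Stat2, Ifit1 and Gbp6 in liver and Parp14 and Samhd1 in adipose tissue have higher means at 20 months, while Gbp6 in muscle and Irf7 in adipose tissue have lower ones.

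**Figure D3:**
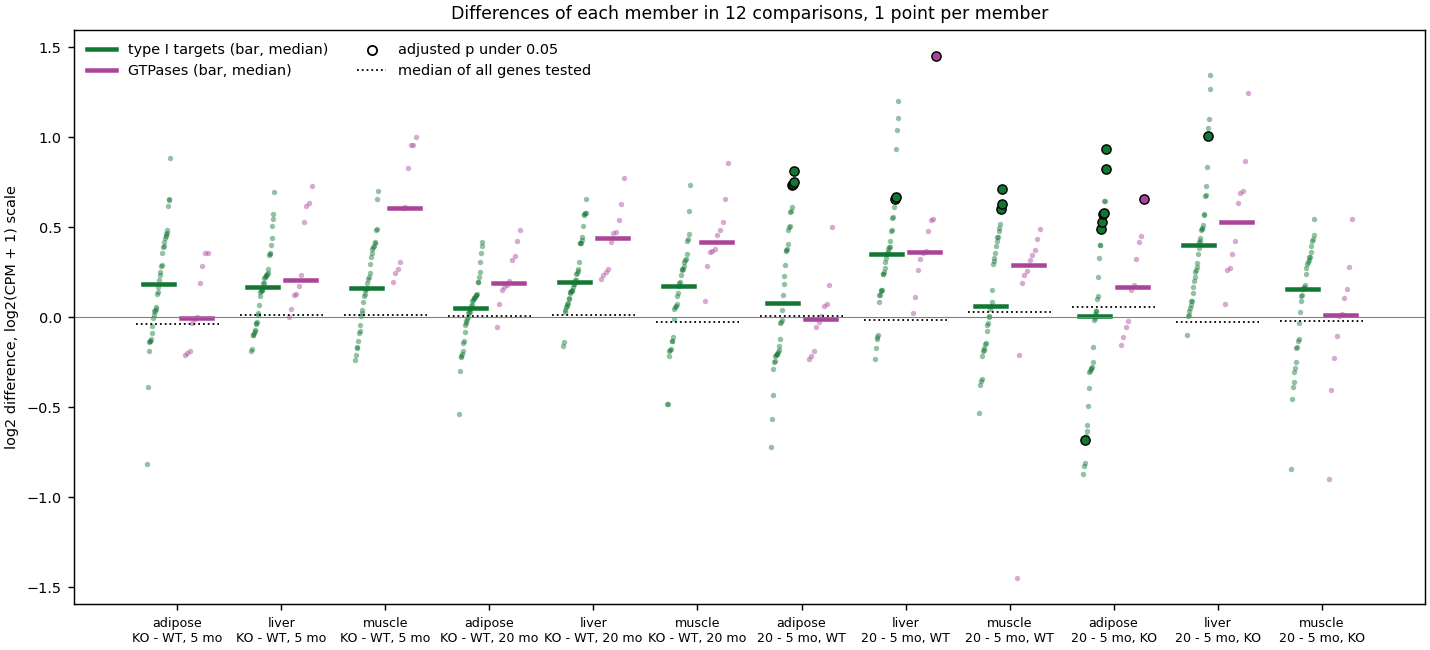
Log2 difference of each member on the log2(CPM + 1) scale (y axis) in 12 comparisons (x axis), KO minus WT on the left and 20 minus 5 months on the right, with type I targets and GTPases side by side, bars at each list's median and dotted lines at the median of all genes. Ringed points passed the limma test at an adjusted p under 0.05, and all of them are ageing differences.

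Whether the ageing difference depended on genotype was tested as an interaction. Limma called 0 members in adipose tissue, liver and muscle (all genes 0.0% in each), and edgeR and DESeq2 also called 0. At an unadjusted p under 0.05 there were 2 members in adipose tissue (all genes 2.85%), 0 in liver (3.92%) and 1 in muscle (3.31%). The adipose pair was Ifit1, at -1.10 ± 0.44 (SE, limma adjusted p = 1.0), and Ifi208, at -0.65 ± 0.30 (SE, limma adjusted p = 1.0). In muscle it was Usp18, at 0.67 ± 0.31 (SE, limma adjusted p = 1.0). For Stat2 in liver the interaction was 0.34 ± 0.28 (SE, limma adjusted p = 0.99), so its larger rise in KO was not separated from that in WT. Whether the young KO difference depended on the tissue was tested across the 5-month libraries, over 43 members. Limma, edgeR and DESeq2 called 0 members for each pair of tissues (all genes 0.0%). The members at an unadjusted p under 0.05 were 2 for adipose tissue against liver (all genes 5.49%), 2 for adipose tissue against muscle (3.96%) and 1 for liver against muscle (0.971%). A miss of the threshold does not show that tissues or genotypes responded alike.

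Some libraries were the highest or lowest of their group for many members at once, while others, such as W18L04, highest for 11 members and lowest for 11, were not. K18L08 was the lowest of the 5 old KO livers for 42 of 46 members, with a median deviation from the group of -0.84 (log2) over type I targets. W18S72 was the highest of old WT muscle for 35 members and K5L5218 of young KO liver for 27. W5F5042 was the highest of young WT adipose tissue for 26. At the low end stood W5L5004, lowest of young WT liver for 28 members, and W18F25, lowest of old WT adipose tissue for 23. Young codes share a number between tissues, and some pairs moved alike. The liver library W5L5004 was lowest for 28 members and the muscle library W5S5004 for 21. The GTPases of W5L5277 stood 0.75 above the group in liver and those of W5S5277 0.77 in muscle, but 0.093 in the adipose library W5F5277. W5F5042 was high in adipose tissue, while the type I deviation of the liver library W5L5042 was 0.058. No label states that a shared number is 1 animal. Across the 6 young WT muscle libraries Gbp6 was highest, at 219 CPM, in W5S5004, where Gbp2, Gbp3 and Gbp5 were lowest, and it was lowest, at 13.2, in W5S5277, where Gbp3 and Gbp7 were highest.

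**Figure D4:**
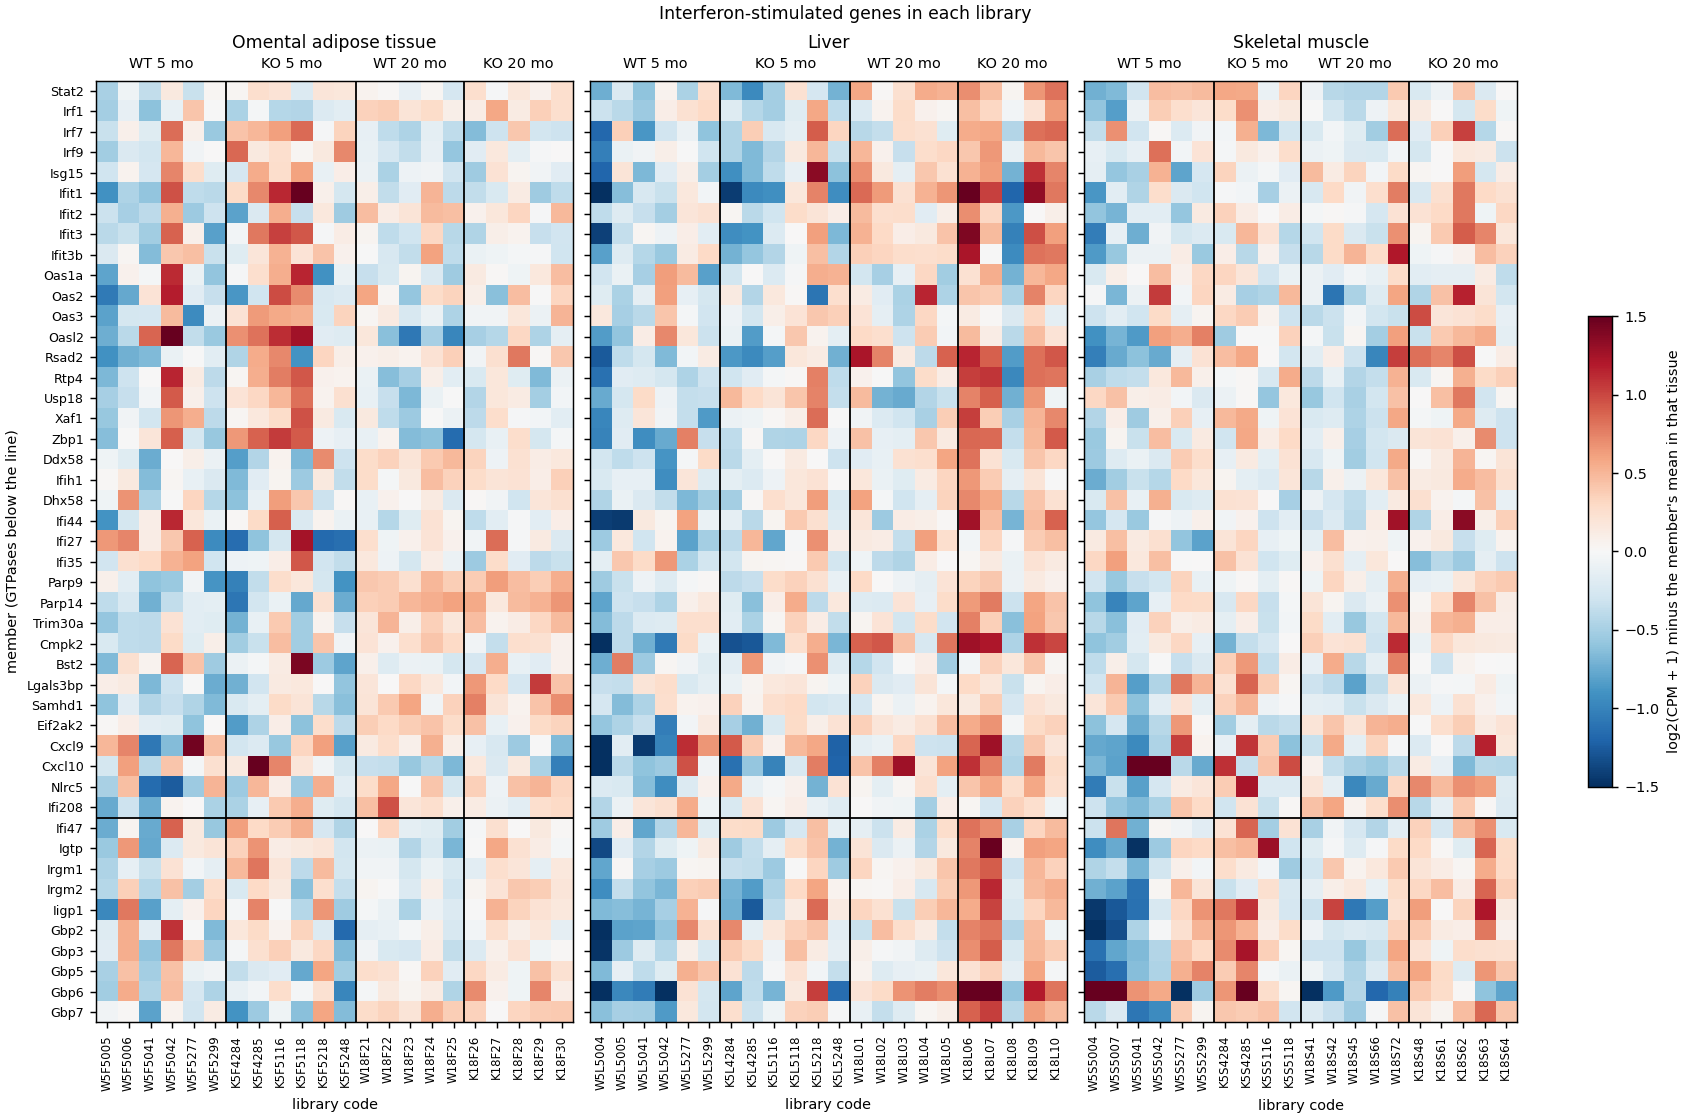
Deviation of log2(CPM + 1) from the member's mean in that tissue for 46 members (rows, GTPases below the line) in 64 libraries (columns, by group), with colour saturated at 1.5 in either direction. Columns such as K18L08, low, and W18S72, high, run through most rows.

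**Figure D5:**
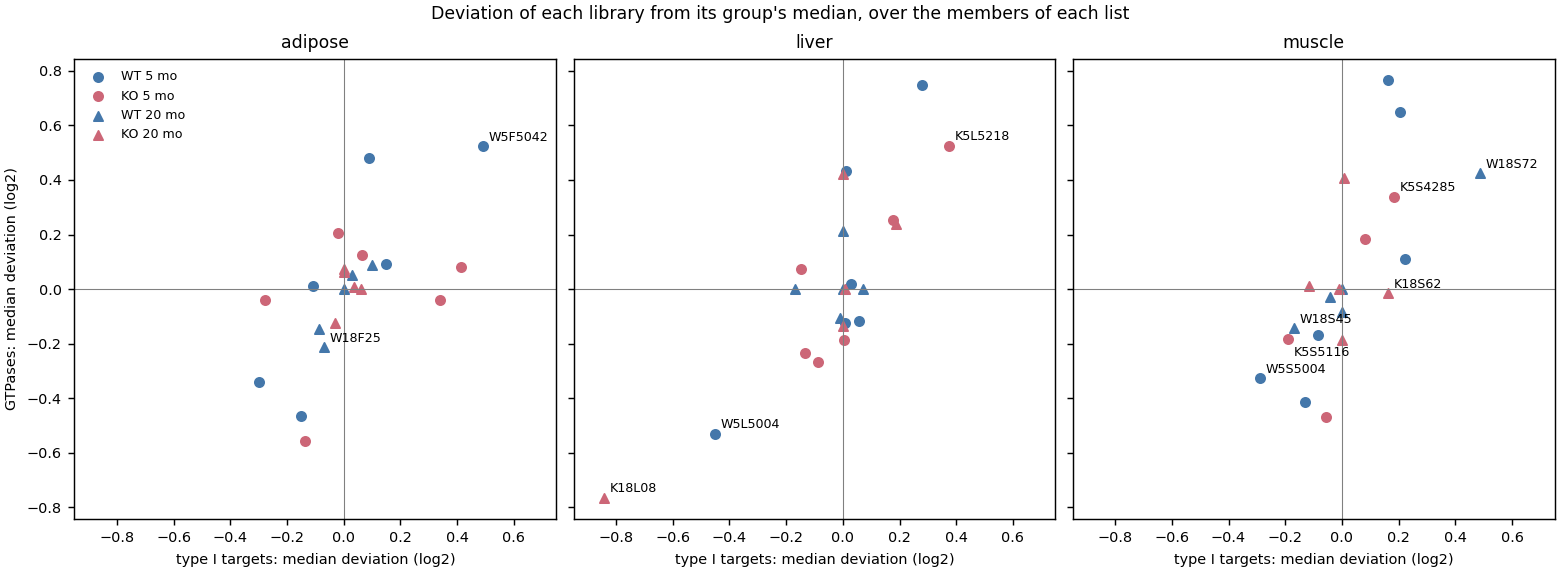
Median deviation from the group over type I targets (x axis) and over GTPases (y axis), log2, 1 point per library, by tissue. K18L08 and W5L5004 are low on both axes, and W5F5042, K5L5218 and W18S72 are high on both.

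The upstream genes of the pathway were taken from a list of 31, of which 26 were tested in some tissue. The interferon genes were barely detected. Ifna1 and Ifna4 were 0 in every library, Ifna2 reached at most 0.0265 CPM, Ifnb1 0.074 and Ifng 0.664. Limma called none of the list for KO against WT in any tissue, where 0 to 2 had an unadjusted p under 0.05 in a comparison, edgeR called 0 and DESeq2 called 1, Ticam1, higher in young KO adipose tissue. With age in WT adipose tissue 1 of 26 was called (all genes 10.8%), Tlr3, an endosomal sensor of double-stranded RNA, which rose by 0.67 ± 0.19 (SE, limma adjusted p = 0.033). Without the Xist libraries this call was lost, at 0.49 ± 0.21 (SE, limma adjusted p = 0.16), and without the epididymis libraries 5 were called. In KO adipose tissue 6 of 26 were called (all genes 14.2%), Tlr3, Tyk2, Ifnar1, Ifngr2 and Ikbke higher and Isg20 lower. Isg20, an exonuclease of RNA, fell by 1.72 ± 0.38 (SE, limma adjusted p = 0.0066). Its 2 highest young KO libraries, K5F4284 at 77.2 CPM and K5F5248 at 68, are among those with epididymis transcripts, and without the epididymis libraries it fell by 1.24 ± 0.33 (SE, limma adjusted p = 0.021). The young KO libraries kept there are K5F4285 and the Xist libraries K5F5116 and K5F5118. In WT liver 2 of 23 were called (all genes 7.19%), both receptor chains. Ifnar2 fell by 0.47 ± 0.11 (SE, limma adjusted p = 0.011), a call that held in all 29 alternatives, and Ifngr1 fell by 0.48 ± 0.12 (SE, limma adjusted p = 0.023), which was lost without the Xist libraries, at an adjusted p of 0.13 by limma. In KO liver Ifnar2 alone of 23 was called, lower (all genes 2.99%). In WT muscle 4 of 24 were called, a share below that of all genes (18.6%). Ifngr1 fell by 0.58 ± 0.15 (SE, limma adjusted p = 0.015) and Socs3, a feedback inhibitor of cytokine signalling, by 2.44 ± 0.67 (SE, limma adjusted p = 0.019), while Stat3 was also lower and Ifngr2 higher. The young WT level of Socs3 was carried by both Xist libraries, W5S5041 at 73.4 CPM and W5S5042 at 172, beside 4.35 to 19.4 in the other 4 and 1.4 to 14.5 in old WT. Without the Xist libraries the Socs3 difference was -1.39 ± 0.51 (SE, limma adjusted p = 0.10), and none of the 4 calls held there or without the muscle libraries with blood or liver transcripts. In KO muscle 2 of 24 were called (all genes 5.57%), Ifnar2 and Ifngr1, both lower, and 0 in either of those settings.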

How the data were processed

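RNA of 64 mouse tissue libraries was purified with spin column kits and made into strand-marked, poly-A selected libraries, per the labels' protocols. The authors deposited 1 table of signal values named CPM, against the build GRCm38.p6, per the submitters' processing notes; its title holds CLC, and the aligner and its settings are not given in the sources used here. The deposited columns do not sum to 1 M, but every value was a whole number of reads times 1 factor per library (100% within 0.01 reads), so the signal values were tested as log2(CPM + 1) and the recovered reads, 15.4 M to 28.5 M per library, served count tests. Limma 3.58.1 in R 4.3.3 was fitted per tissue over its 4 groups with a mean-variance trend, on genes that exceed 1 CPM in a number of libraries no lower than the size of the smallest group. The fits held 14286 adipose, 12924 liver and 13237 muscle genes, with Benjamini-Hochberg adjustment over all of them and calls at an adjusted p under 0.05. A 5-month fit over 11330 genes tested the KO difference between tissues. Alternatives were a pseudocount of 0.1, no filter, TMM scaling, Xist status as a covariate, edgeR 4.0.16 quasi-likelihood and DESeq2 1.42.0 tests, and libraries left out. Over all genes edgeR called from 0 to 9 genes for KO against WT in a tissue and age, and DESeq2 from 5 to 304. No column of per-library values lacked a sample. The fits were also run on simulated counts, drawn independently for each gene and without outlying libraries. Unlike these data, that run held no libraries that move many members together, so it does not bear on the results above.

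The members and lists were chosen with earlier results of these data known. Named members were a fixed panel of 14 plus, for each ageing comparison, the 4 called members with the smallest adjusted p in each direction. Any other member was chosen after its values were seen. Promoters are RefSeq windows of GRCm38.p6. The values of 1 gene of the upstream list are not reported here.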

Additional observations from a re-analysis of the deposited data

Results flagged for a closer look

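A library was listed where its gap to the nearest other library of its group, as a share of the group's range, passed the critical value of Dixon's test. Over 24 members and 2 summed levels, 21 of 312 groups did, where chance gives about 1 in 20. In young WT adipose tissue W5F5042 was above its group for Irf7 at 23.97 CPM (next 13.7), Ifit1 at 11.7 (next 4.06) and Usp18 at 7.15 (next 3.52). In young KO adipose tissue K5F5118 was high for Bst2 at 91.2 CPM (next 36.7) and K5F4285 for Cxcl10 at 21.4 (next 5.77). In old KO adipose tissue K18F28 was high for Irf7 at 17.5 CPM (next 10.6) and K18F27 low for Gbp7 at 19.2 (next 24.2).

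In young KO liver K5L5218 was above its group for Isg15 at 17.85 CPM (next 5.79), Irf1 at 45.6 (next 26.6) and Cxcl10 at 7.66 (next 3.29). In old KO liver K18L08 was below its group for Rsad2 at 9.77 CPM (next 33.1) and for the summed type I targets at 886 CPM (next 1276). In old WT liver W18L01 was high for Usp18 at 19.8 CPM (next 10.9).

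In old WT muscle W18S72 was above its group for Irf7 at 9.74 CPM (next 4.85), Usp18 at 3.20 (next 1.55) and Gbp2 at 9.85 (next 7.10), and W18S41 for Cxcl10 at 1.15 (next 0.606). In young WT muscle W5S5007 was high for Irf7 at 8.70 CPM (next 5.08). In young KO muscle K5S5116 was low for Ifit1 at 1.65 CPM (next 2.52) and K5S5118 for Gbp7 at 7.44 (next 12.4). In old KO muscle K18S61 was low for Bst2 at 6.85 CPM (next 8.69).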

How the results depend on the processing

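The count of 0 members called for KO against WT, for the interactions and between tissues was the same in every alternative tried, single libraries left out and the block on shared code numbers included, except that young adipose tissue gave 2 without the Xist libraries. In that fit every young KO adipose library but K5F4285 held epididymis transcripts. For ageing in KO adipose tissue the count of 8 became 4 with no filter, 4 with TMM scaling, 5 with Xist status as a covariate and 13 without the Xist libraries, with 2 to 14 over single libraries left out. In WT adipose tissue the 4 became 10 without the epididymis libraries, with 2 to 7 over single libraries. In WT liver the 3 became 0 with no filter, 1 with the Xist covariate, 5 with DESeq2 and 0 without the Xist libraries, with 0 to 5 over single libraries. In KO liver the 1 became 3 with edgeR and 7 with DESeq2, with 1 to 12 over single libraries. In WT muscle the 3 became 0 with no filter, 0 without the Xist libraries and 0 without the libraries with blood, lymphoid or liver transcripts, with 0 to 7 over single libraries. In KO muscle the 0 became 1 with DESeq2, with 0 to 1 over single libraries. The cause of these changes was not tested. The shares of all genes called in the alternatives are not given here, so these counts do not set the members apart from other genes. The type I median for ageing was -0.24 in KO adipose tissue without the epididymis libraries and -0.021 in KO muscle without the Xist libraries. In the adipose fit, young KO kept only K5F4285 and the Xist libraries K5F5116 and K5F5118. No called member changed sign in any alternative. No paired analysis was possible between genotypes or ages because their libraries share no code number and the labels give no pairing. Between tissues, the block on code numbers had a correlation of 0.07 over 14 blocks. Muscle has 4 young KO libraries, and members near 1 CPM, such as Ifi208, rest on few reads.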
